A study of Mus musculus with 2 samples.

Results

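The 9 genes described here encode chemokine receptors that steer CD8 effector T cells: Ccr8, Ccr4, Cxcr6, Ccr9, Ccr7, Cxcr4, Cxcr3, Ccr2 and Cx3cr1. They were taken by gene symbol from the array annotation, and all 9 had a probe set, 1 each, among 19505 genes measured. Mouse CD8 T cells from spleen and lymph node were primed through CD3 and CD28 in both cultures, Tc1 and Tc9. For the first 3 days the Tc1 medium held recombinant human IL-2 at 10 ng/mL. The Tc9 medium held IL-4 at 10 ng/mL, TGF-beta at 1 ng/mL and the anti-interferon gamma antibody XMG1.2 at 20 µg/mL, and whether IL-2 was also present is not given in the labels. Both cultures then spent 2 days in medium with IL-2 at 10 ng/mL, and RNA was taken at day 5. Tc1 cells are the interferon gamma producing type of CD8 T cell, and Tc9 cells are the IL-9 producing type. The series set out to find genes with higher expression in Tc9 than in Tc1 cells. Mouse strain, age and the number of animals are not given in the labels.

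There was 1 array per culture. No difference below therefore has a replicate error, a standard error or a p-value, and the culture conditions cannot be told apart from any difference between the 2 arrays. The second array is labelled Tc9 in its title and description but Tc1 in its source name, and it was read as Tc9. Signals are deposited linear intensities of probe sets, given here as log2 values, and a difference is log2 Tc9 minus log2 Tc1. The signals of different probe sets are not on a common scale, so levels are compared between arrays and not between genes. Detectable here means that the brighter of both arrays reached a log2 signal of 6.43, the median of all gene signals. Where the dimmer array lay below that threshold the fold is a lower bound against the threshold, and where both did no fold is given. Cd8a, Cd8b1, Cd3e, Cd3d, Cd3g, Cd2 and Thy1, the 7 measured T cell markers, were detectable on both arrays, with differences from -0.44 to 0.24. All 6 measured B cell markers were detectable as well, with Cd79a, a B cell receptor chain, at 10.65 on the Tc1 array against 9.68 on the Tc9 array. In bulk RNA, fewer cells of a type and less RNA per cell cannot be told apart.

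Chemokine receptors are G protein-coupled receptors on the cell surface that read gradients of small secreted proteins, the chemokines. Bound receptors signal through inhibitory G proteins to integrins and to the cytoskeleton, so the set of receptors on a T cell decides which tissues it can enter. CCR7 and CXCR4 serve lymphoid tissue and bone marrow, CXCR3 leads type 1 effector cells to inflamed sites, and CCR4 and CCR8 are borne by type 2 and skin-homing T cells. CXCR6 marks T cells held in liver, lung and other tissues, and CCR9 leads to the small intestine.

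The Tc9 array had higher signals for the skin and type 2 receptors Ccr8 and Ccr4 and for the tissue receptor Cxcr6, and a lower signal for the lymph node receptor Ccr7. Cxcr4 was higher and Cxcr3 lower, each by less than 2-fold. By measured values, 5 of the 9 receptors were higher by 2-fold or more in Tc9 cells and 2 were lower by 2-fold or more. Over all 19505 genes, 1.80% were as much higher and 2.08% as much lower. Of the 7 receptors past 2-fold, Ccr9, Cx3cr1 and Ccr2 were below the threshold on both arrays. Among the 6 detectable receptors 3 were higher and 1 was lower, beside 2.62% and 2.79% of all detectable genes. When dim values were raised to the threshold the counts were again 3 and 1, beside 1.05% and 1.15% of all genes. The median difference of the 9 was 1.21, and came to 0 when dim values were raised to the threshold, while the median over all genes was 0.00453. The receptors were chosen with results of these arrays known, so these counts describe them and support nothing further.

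**Figure D1:**
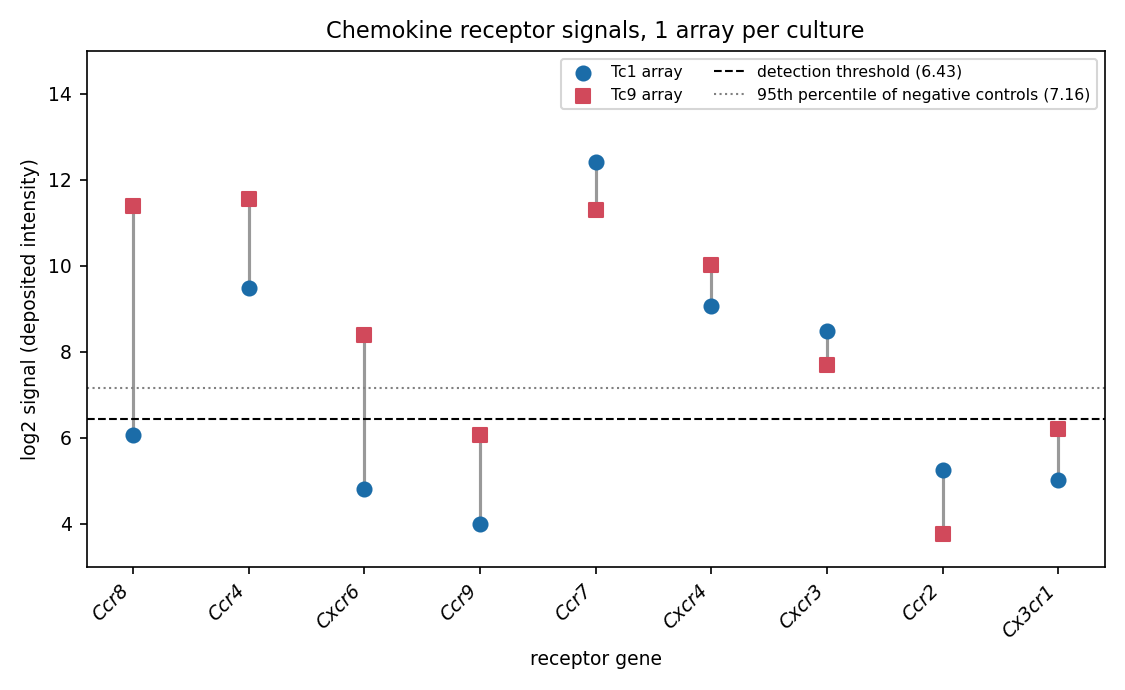
Log2 signal of each of the 9 receptor genes on the Tc1 array (circles) and the Tc9 array (squares), joined by a line, with 1 array per culture and no error bars. Ccr8, Ccr4 and Cxcr6 sit higher on the Tc9 array, Ccr7 sits lower, and both points of Ccr9, Ccr2 and Cx3cr1 lie under the dashed detection threshold at 6.43; the dotted line is the 95th percentile of the negative controls, 7.16.

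Ccr8 encodes the receptor for CCL1, carried by type 2 helper cells, skin T cells and regulatory T cells. Its deposited signal was 66.6 on the Tc1 array against 2684 on the Tc9 array, or 6.06 and 11.39 on the log2 scale. The Tc1 signal lay under the threshold, and 86.5% of the 5222 negative control probe sets were dimmer on that array. On the Tc9 array 99.7% of them were dimmer. Ccr8 was thus within the control range on the Tc1 array and far above nearly all controls on the Tc9 array. In Tc9 cells it was higher by at least 31.1-fold, and by at least 18.8-fold when the threshold was raised to the 95th percentile of the negative controls, a log2 signal of 7.16. Only 2 of the 19505 genes had a larger measured difference toward Tc9 cells. Among the 2266 genes whose mean log2 signal lay within 0.5 of that of Ccr8, 0 differed as far in that direction.

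Ccr4 encodes the receptor for CCL17 and CCL22, which draws T cells to skin and to sites of type 2 responses. Its signal was 711 on the Tc1 array against 2981 on the Tc9 array, or 9.47 and 11.54 on the log2 scale. The values were above 98.7% and 99.7% of the negative controls, so the fold of 4.20 is measured on both sides. Ccr4 is the receptor gene past 2-fold toward Tc9 cells whose Tc1 signal was also clear of the threshold. Among 1331 genes of like mean signal, 1 differed as far in the same direction. Unlike Ccr8, Ccr4 was therefore plainly detected in the Tc1 culture too.

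Cxcr6 encodes the receptor for CXCL16 and is borne by tissue-resident T cells. Its signal was 27.8 on the Tc1 array against 337 on the Tc9 array, or 4.80 and 8.40 on the log2 scale. The Tc1 value was above 66.4% of the negative controls and the Tc9 value above 98.1% of them. In Tc9 cells Cxcr6 was higher by at least 3.91-fold, and the bound came to 2.36-fold with the raised threshold. The measured difference of 3.60 was larger, but its Tc1 side is a dim value. Of 1868 genes of like mean signal, 5 differed as far toward Tc9 cells.

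Ccr7 encodes the receptor for CCL19 and CCL21, which brings naive and central memory T cells into lymph nodes. Its signal was 5411 on the Tc1 array against 2508 on the Tc9 array, or 12.40 and 11.29 on the log2 scale. Both were strong signals, above 99.8% and 99.6% of the negative controls. Ccr7 was 2.16-fold lower in Tc9 cells, so the gene remained well detected in both cultures. Of 396 genes of like mean signal, 2 were lower by as much. The difference lies close to the 2-fold line and came to -1.0 when each array was centred on its median over all probe sets, which shifted every difference by 0.11.

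Cxcr4 encodes the receptor for CXCL12, which holds lymphocytes in bone marrow and lymphoid tissue. Its signal was 536 on the Tc1 array against 1041 on the Tc9 array, or 9.07 and 10.02 on the log2 scale. Cxcr4 was 1.94-fold higher in Tc9 cells, just inside the 2-fold line. It passed that line at 2.03-fold with arrays centred on the median of all genes and at 2.09-fold with the median of all probe sets. Of 2104 genes of like mean signal, 27 differed as far in the same direction, a share of 1.28%, and so did 2 of the 35 negative controls of like mean signal, a share of 5.71%. Cxcr4 and Ccr7, which both serve lymphoid homing, thus differed in opposite directions on these arrays.

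Cxcr3 encodes the receptor for CXCL9 and CXCL10 and is a usual surface marker of Tc1 cells. Its signal was 359.7 on the Tc1 array against 208 on the Tc9 array, or 8.49 and 7.70 on the log2 scale. The values were above 97.7% and 97.2% of the negative controls. Cxcr3 was 1.73-fold lower in Tc9 cells and did not pass 2-fold under any of the settings tried. Of 2242 genes of like mean signal 78 were lower by as much, and so were 17 of the 86 negative controls of like mean signal, a share of 19.8%. The lower Cxcr3 signal is therefore of a size that control probe sets of this brightness also showed.

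Ccr9, Cx3cr1 and Ccr2 stayed under the threshold on both arrays, and their direction is given as a value without a fold. Ccr9, the gut-homing receptor for CCL25, gave 4.01 on the Tc1 array against 6.07 on the Tc9 array. Cx3cr1, the fractalkine receptor of terminal effector cells and monocytes, had 5.01 and 6.21. Ccr2, a receptor of monocytes and memory T cells for CCL2, had 5.26 and 3.76. On the brighter array of each gene, 88.1%, 89.7% and 75.6% of the negative controls were dimmer for Ccr9, Cx3cr1 and Ccr2. The measured difference was 2.07 for Ccr9, 1.21 for Cx3cr1 and -1.49 for Ccr2. Among negative controls of like mean signal, 1 of 1027 differed as far as Ccr9, 17 of 718 as far as Cx3cr1 and 32 of 1344 as far as Ccr2, each in the same direction.

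**Figure D2:**
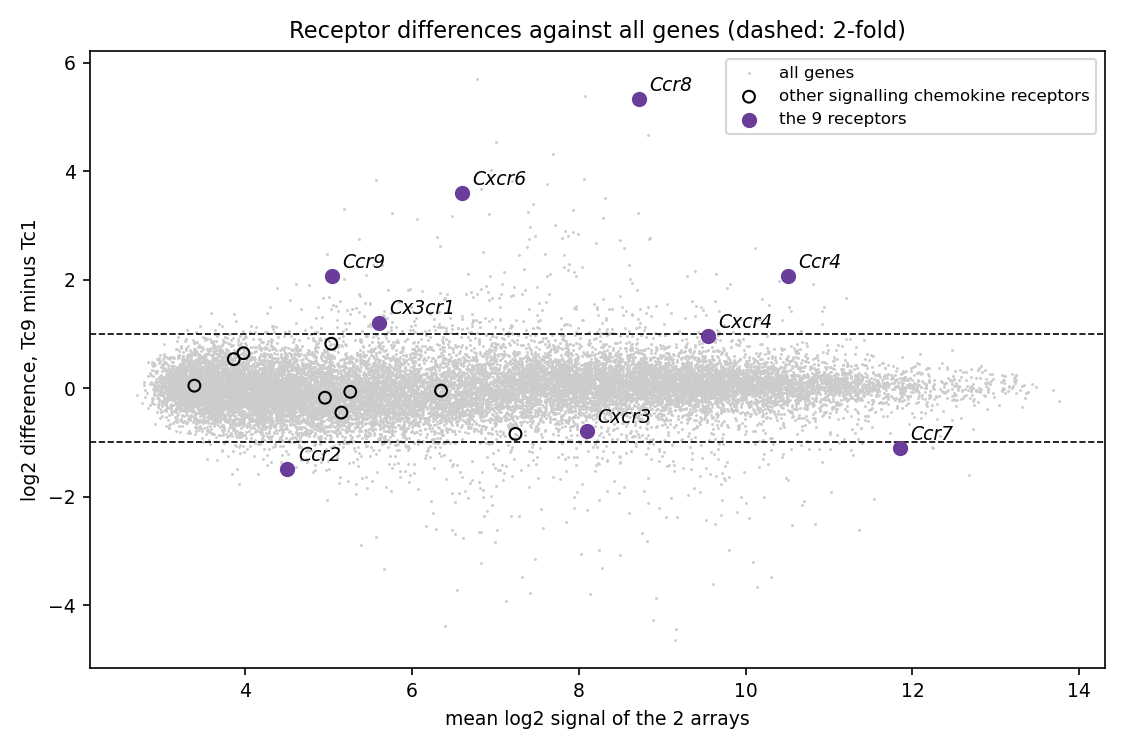
Log2 difference, Tc9 minus Tc1, against the mean log2 signal of the 2 arrays for all 19505 genes (grey), the 9 receptors (filled, named) and 9 other signalling chemokine receptors (open); dashed lines mark 2-fold. Ccr8, Cxcr6, Ccr4 and Ccr7 lie at the edge of the cloud for their brightness, while Cxcr3 at -0.79 lies inside the 2-fold lines.

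The stretches of 250 bases before the annotated start sites are shown for the 3 detectable receptors with a difference past 2-fold toward Tc9 cells and, for contrast, for Cxcr3. RefSeq promoter windows of build GRCm38.p6 were found for 8 of the 9 receptors, all but Ccr7. The sequences are 5′ to 3′ on the strand of the gene, in lower case, with matches to the searched motifs in capitals.
Ccr8 (chr9:120091883-120092132, plus strand): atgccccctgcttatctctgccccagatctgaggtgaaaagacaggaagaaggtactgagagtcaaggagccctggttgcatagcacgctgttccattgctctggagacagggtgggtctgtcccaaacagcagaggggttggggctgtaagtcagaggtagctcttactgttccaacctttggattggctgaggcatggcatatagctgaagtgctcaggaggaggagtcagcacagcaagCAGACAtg
Ccr4 (chr9:114496545-114496794, minus strand): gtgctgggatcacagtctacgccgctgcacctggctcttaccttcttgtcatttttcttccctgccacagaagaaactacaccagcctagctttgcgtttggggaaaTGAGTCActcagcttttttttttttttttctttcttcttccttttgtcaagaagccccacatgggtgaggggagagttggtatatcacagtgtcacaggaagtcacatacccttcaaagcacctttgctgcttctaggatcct
Cxcr6 (chr9:123806227-123806476, plus strand): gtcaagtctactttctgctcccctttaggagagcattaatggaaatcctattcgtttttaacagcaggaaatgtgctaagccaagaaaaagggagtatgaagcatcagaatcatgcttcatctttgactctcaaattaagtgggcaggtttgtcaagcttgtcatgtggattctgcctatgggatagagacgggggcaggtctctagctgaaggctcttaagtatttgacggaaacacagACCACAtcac
Cxcr3 (chrX:101734148-101734397, minus strand): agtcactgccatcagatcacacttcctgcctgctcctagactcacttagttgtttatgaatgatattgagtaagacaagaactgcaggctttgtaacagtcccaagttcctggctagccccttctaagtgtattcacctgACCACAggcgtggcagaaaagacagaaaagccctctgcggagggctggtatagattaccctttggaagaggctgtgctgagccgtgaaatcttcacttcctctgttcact
The 7 motifs searched on both strands were TTC and GAA 3 bases apart (STAT), TTC and GAA 4 bases apart (STAT6), GAAA and GAAA 2 bases apart (interferon response), TGANTCA (AP-1), TGTGGT (RUNX), TCACACC (T-box) and CAGACA (SMAD), where N is any base. The capitals in Ccr8 are a CAGACA match, a motif that 17.1% of 32851 promoter windows of the same length hold. The capitals in Ccr4 are a TGANTCA match that starts 143 bases before the start site, a motif held by 6.75% of windows. The capitals in Cxcr6 and Cxcr3 are ACCACA, the reverse complement of TGTGGT, which 14.0% of windows hold and which Cx3cr1 also has. Cxcr6, higher in Tc9 cells, and Cxcr3, lower, thus share the same letters. None of the 8 windows holds either STAT motif, the T-box or the interferon response motif, which 7.02%, 5.85%, 3.33% and 2.98% of windows hold. These matches describe letters and not binding sites.

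The measured genes next to Ccr8, Ccr4, Cxcr6 and Ccr7 differed by less than these receptors. These are the detectable receptors past 2-fold, and 1.80% and 2.08% of all genes were as much higher or lower. A smaller difference beside them was therefore likely in advance. Ccr8, Ccr4, Cxcr6, Ccr9, Ccr2 and Cx3cr1, 6 of the 9, lie on chromosome 9. Cx3cr1, dim on both arrays with a measured difference of 1.21, is the measured gene next to Ccr8 on 1 side, and Slc25a38 on the other side differed by 0.58. Crtap and Trim71, which flank Ccr4, differed by 0.37 and 0.35, against 2.07 for Ccr4 itself. Fyco1 and Xcr1, which flank Cxcr6, were below the threshold on both arrays, with differences of -0.04 and 0.65. Tns4 and Smarce1, beside Ccr7, differed by -0.05 and -0.09. Cx3cr1 differed by less than Ccr8 beside it, and more than Xirp1 on its other side, at -0.35.

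Of 9 other signalling chemokine receptors measured, 8 were below the threshold on both arrays. By measured values 0 of the 9 were past 2-fold in either direction, beside 1.80% and 2.08% of all genes, and their median difference was -0.04. Cxcr5, the follicular receptor of B cells and helper T cells, was the detectable one, at 7.66 on the Tc1 array against 6.82 on the Tc9 array, 1.79-fold lower. The B cell markers were lower on the Tc9 array too, with a median difference of -0.35 and summed deposited signals of 4297 and 3079. B cells also express Ccr7 and Cxcr4, and the part of B cells in those signals was not tested. Monocyte and macrophage markers, which go with Ccr2 and Cx3cr1, had 2 of 5 measured genes detectable. Lyz2 was at 8.36 and 8.79 and Fcgr1 at 6.65 and 6.21, and the 5 had summed signals of 592 and 690. These 5 markers do not cover all genes of such cells. The part of monocytes and macrophages in the dim receptor values, or in any other receptor or ligand signal, was not tested. Of the NK and innate lymphoid markers 2 of 4 were detectable, Il7r and Kit. Below the threshold, Ncr1, which defines NK cells, was at 4.88 and 3.93, and Klrb1c at 5.72 and 4.22. Of the dendritic cell markers 2 of 5 were detectable, Batf3 and Zbtb46, both lower on the Tc9 array, while Itgax, just under the threshold, was at 5.35 and 6.41. None of the 3 measured neutrophil markers was detectable, with S100a8 at 3.74 and 6.22, S100a9 at 4.97 and 6.33, and Csf3r at 5.75 and 5.28. Cd4, of helper T cells, was at 9.33 and 8.74, and Cd40lg, the other measured helper T cell marker, was dim at 4.56 and 4.41. The part of helper T cells in the Ccr8 and Ccr4 signals was not tested.

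Among 17 measured atypical and other chemoattractant receptors, 3 were higher by 2-fold or more in Tc9 cells by measured values and 1 was lower. Over all genes the shares were 1.80% and 2.08%. When dim values were raised to the threshold 2 were higher and 1 was lower, beside 1.05% and 1.15% of all genes. This list and those below were chosen with earlier results of these data known, so their counts describe them and support nothing further. Gpr183, the oxysterol receptor that places lymphocytes within lymphoid tissue, was 2.83-fold higher, at 8.72 and 10.21. S1pr1, the egress receptor for sphingosine phosphate, was 2.16-fold higher, and Cysltr1, a leukotriene receptor, at least 1.38-fold. Ccrl2, an atypical receptor that presents chemerin, was at least 2.83-fold lower, at 7.93 and 5.95.

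Cells in the culture can also make the ligands of the 9 receptors. Their signals come from the same 2 arrays, so a shared direction is no independent support for a receptor difference. Of 18 ligand genes, 1 was higher by 2-fold or more in Tc9 cells by measured values and 3 were lower. Over all genes the shares were 1.80% and 2.08%. When dim values were raised to the threshold 1 ligand gene was higher and 1 was lower, beside 1.05% and 1.15% of all genes. Of the 18, 10 were below the threshold on both arrays. Ccl17, a ligand of CCR4, was at 6.21 on the Tc1 array against 7.88 on the Tc9 array, at least 2.73-fold higher, in the same direction as Ccr4. Ccl22, the other CCR4 ligand, was at 9.18 and 8.79, 1.31-fold lower. Cxcl9 and Cxcl10, CXCR3 ligands that interferon gamma induces, were at least 3.91-fold and at least 1.49-fold lower in Tc9 cells, in the same direction as Cxcr3. Cxcl11, another CXCR3 ligand, was below the threshold on both arrays, at 4.71 and 4.72.

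The CCR8 ligand genes Ccl1 and Ccl8 were below the threshold on both arrays, beside the large Ccr8 difference. Cxcl16, the CXCR6 ligand, was at 7.25 and 6.49, 1.69-fold lower, opposite to Cxcr6. These Cxcl16 values were above 94.9% and 92.1% of the negative controls, and the Tc9 value was just over the threshold. Ccl25, the CCR9 ligand, was 1.27-fold lower. Of the CCR7 ligands, Ccl21a was at least 1.14-fold lower, Ccl19, the last of the 3 lower ligands, was dim on both arrays, and the near-identical Ccl21 genes may share probes. Cxcl12, the CXCR4 ligand, was at 6.36 and 6.65, close to the threshold.

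**Figure D3:**
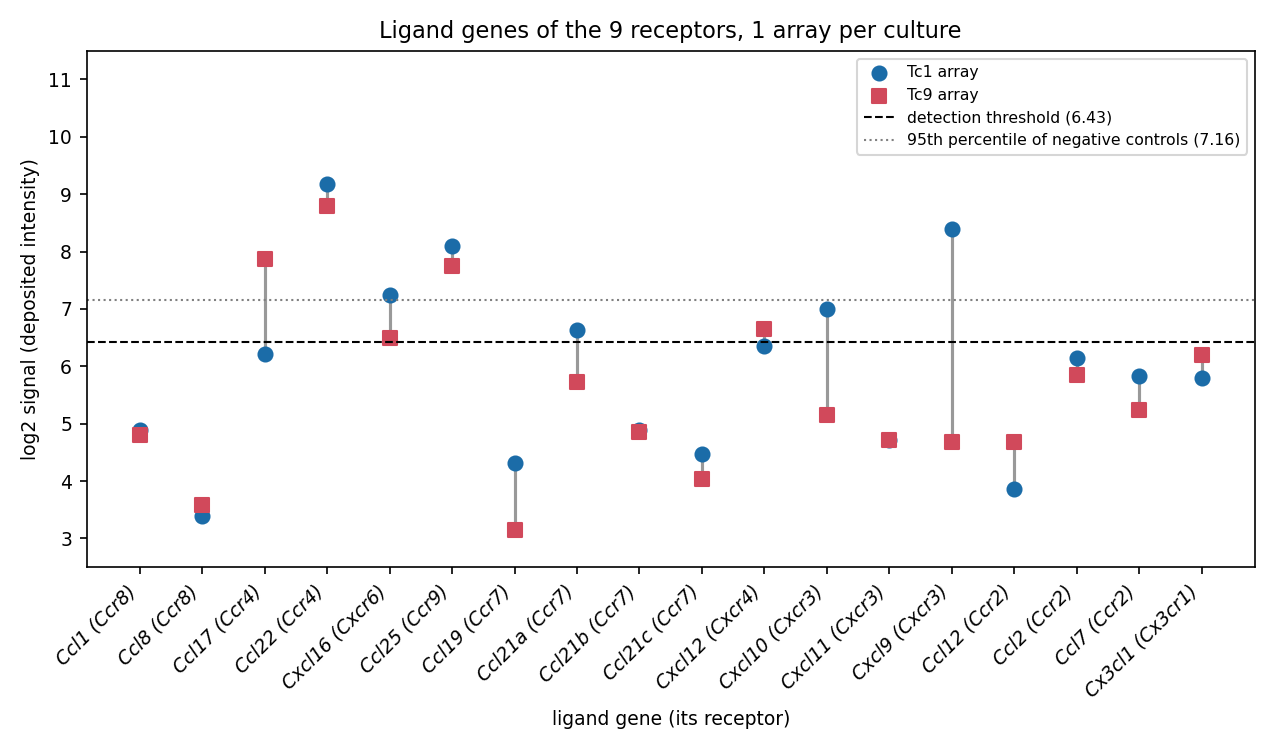
Log2 signals of 18 ligand genes on the Tc1 array (circles) and the Tc9 array (squares), each with its receptor in brackets, 1 array per culture. Ccl17 is higher and Cxcl9 and Cxcl10 are lower on the Tc9 array, and both CCR8 ligands lie below the dashed threshold at 6.43.

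Of 33 measured genes of receptor signalling and desensitisation, which act below the receptors, 31 were detectable, and 26 of these differed by less than 2-fold. Past 2-fold, 3 were higher in Tc9 cells and 2 were lower, beside 2.62% and 2.79% of all detectable genes. The median difference was -0.01. Gnai2, the main inhibitory G protein subunit of lymphocytes, was at 12.34 and 12.41, and Gnb1 at 12.12 and 12.27. Pik3cg, the catalytic subunit of the G protein-activated PI3 kinase, was 2.38-fold higher while Pik3r5, its regulatory partner, was 3.79-fold lower. Of the RGS proteins, which switch off receptor G proteins, Rgs10 was 2.61-fold higher and Rgs1 2.17-fold lower. Rassf5, which links chemokine signals to integrin adhesion through RAP1, was 2.25-fold higher.

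Adhesion molecules act with the receptors in tissue entry. Of 16 measured, 2 were past 2-fold upward in Tc9 cells and 1 downward, beside 1.80% and 2.08% of all genes. Itgae was at least 20.1-fold higher, and Itgb7, which pairs with it, differed by 0.28. Chst2, a sulfotransferase that makes selectin ligands, was 2.93-fold higher, and Cd69, a tissue retention and activation marker, was 5.65-fold lower. Fut7, the fucosyltransferase needed for skin-homing selectin ligands, differed by 0.14 beside the higher Ccr8 and Ccr4.

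Of 20 measured transcription factors and other regulators linked to effector T cell migration, 3 were past 2-fold upward in Tc9 cells and 4 downward. Over all genes the shares were 1.80% and 2.08%. Tbx21, which encodes T-bet, a known activator of Cxcr3, was at 9.56 and 6.50, 8.30-fold lower, where Cxcr3 was 1.73-fold lower. The Tc9 signal of Tbx21 was just over the threshold and above 92.2% of the negative controls, so that fold rests on a dim value. A link between Tbx21 and Cxcr3 was not tested. Eomes was 2.09-fold lower, Stat4 2.19-fold and Prdm1 at least 1.79-fold, with a measured difference past 2-fold. Batf was 2.43-fold, Id2 2.27-fold and Rara, a retinoic acid receptor, 2.56-fold higher. Stat6, which carries the IL-4 signal, differed by 0.15. CCR9 is known to be induced through retinoic acid receptors. Ccr9 was below the threshold on both arrays, at 4.01 and 6.07, with a measured difference of 2.07. A link between Rara and Ccr9 was not tested.

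**Figure D4:**
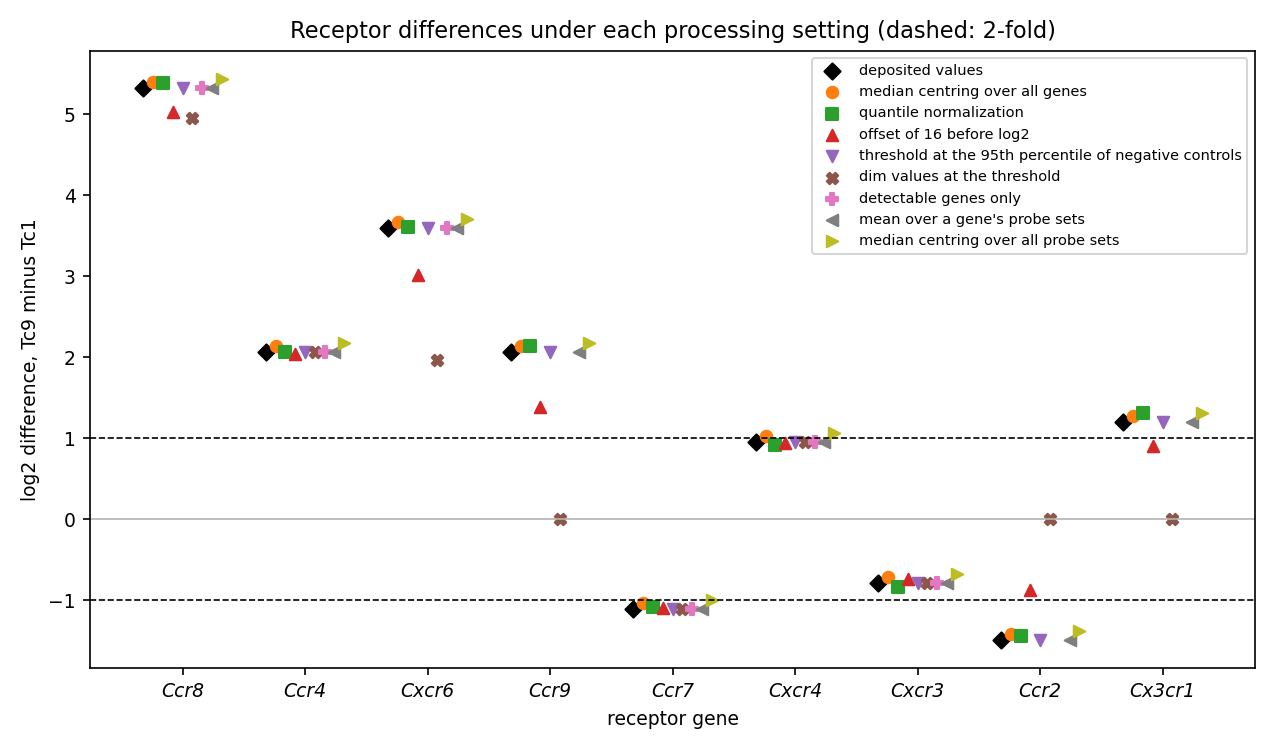
Log2 difference, Tc9 minus Tc1, of each receptor with the deposited values and under 8 other settings, with dashed lines at 2-fold; a setting that leaves out dim genes has no point for Ccr9, Ccr2 and Cx3cr1. Ccr8, Ccr4 and Cxcr6 stay above the upper line under each setting, Cxcr4 sits on both sides of it, and Ccr9, Ccr2 and Cx3cr1 go to 0 with dim values at the threshold.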

How the data were processed

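Affymetrix arrays, 1 for Tc1 and 1 for Tc9, measured total RNA. Trizol extraction and biotin labelling of whole-transcript sense targets were used, per the labels' protocols. The deposited table holds linear probe set intensities; how the authors corrected background, summarized and normalized is not given in the labels. Across the 28846 probe sets the deposited intensity had a median of 57.2 and 53.1 and an upper quartile of 330.5 and 346.2 on the Tc1 and Tc9 arrays, so the values were used as they are, after log2.

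Of the probe sets, 19572 have 1 gene symbol in the platform annotation, 0 have several and 9274 have none. All 19572 gene numbers matched the GRCm38.p6 RefSeq table, and 0 symbols changed. For 55 genes with several probe sets the brighter was used. The detection threshold, 6.43, is the median of gene signals on both arrays and is not a background level: of the negative controls, 89.9% and 91.7% lay below it. Genes of like mean signal are those within 0.5 log2 of a receptor's mean.

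With 1 array per group no test was run, and the number of arrays limits the precision. The size rule is 2-fold, and percentages past it over all genes stand as background. The 9 receptors and the gene lists were chosen with earlier results of these data known. All 9 receptors are named; of each other list, the detectable genes past 2-fold are named with a few further detectable genes, and marker genes, Fut7, Cxcl12 and dim genes were named with their values known. Alternatives were 2 median centrings, quantile normalization, an offset of 16 before log2, a threshold at the 95th percentile of negative controls, dim values at the threshold, detectable genes only, and the mean over probe sets. A list median was called moved when it changed by over 1.5-fold, since there is no replicate spread. Python 3.11.15, numpy 2.4.6 and pandas 2.3.3 were used.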

Additional observations from a re-analysis of the deposited data

How the results depend on the processing

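The direction of each of the 9 receptor differences was kept under the 8 alternatives, 7 planned and 1 chosen after seeing the data (centring on the median of all probe sets). As exceptions, Ccr9, Ccr2 and Cx3cr1 came to 0 with dim values at the threshold and have no value with detectable genes only. Kept directions say little here, since most alternatives could not reverse one. The raised threshold, detectable genes only and the mean over probe sets leave a difference unchanged for genes with 1 probe set. An offset or raised dim values can only shrink a difference. The 2 centrings shifted every difference alike, by less than the size of any receptor difference. The count of receptors at least 2-fold higher went from 5 to 3 with dim values at the threshold and with detectable genes only. It came to 4 with an offset of 16 and to 6 with each of the 2 centrings. The count at least 2-fold lower went from 2 to 1 with dim values at the threshold, with detectable genes only and with an offset of 16. The median difference of 1.21 came to 0 with dim values at the threshold. Differences lay between 4.96 and 5.44 for Ccr8, 2.04 and 2.18 for Ccr4, 1.97 and 3.71 for Cxcr6, -1.11 and -1.0 for Ccr7, 0.91 and 1.07 for Cxcr4, and -0.84 and -0.68 for Cxcr3. With the offset Cx3cr1 came to 0.91 and Ccr2 to -0.87, both under 2-fold. Among all detectable genes past 2-fold, 48.5% were higher in Tc9 cells, against 55.7% after centring on all genes and 59.0% after centring on all probe sets. The count of genes past 2-fold in the other lists, 23, stayed within 1.5 times. No paired analysis was possible because each group has 1 array and the labels carry no replicate numbers, and no array could be left out.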
